A study of Oryza sativa Japonica Group with 4 samples.

Results

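The genes described here belong to families of defense and jasmonate signalling in rice roots, namely WRKY transcription factors, TIFY proteins, enzymes of jasmonate synthesis, a pathogenesis-related protein and chitinases. The families were picked with earlier results of these data known, and their members are the genes whose symbol or synonym begins with *WRKY*, *TIFY*, *JAZ*, *LOX*, *AOS*, *AOC*, *OPR*, *PR1*, *PR5*, *PR10*, *PBZ* or *Cht*. The rule gave 58 genes, of which 52 are paired with a probe set, out of 17905 genes with a probe set. The 6 others, *TIFY1B*, *LOX4*, *OPR1*, *OPR3*, *Cht2* and *Cht12*, are linked to no probe set in the annotation table used here. No gene of the tables used here had a name beginning with *PR1*, *PR5* or *PR10*.

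All seedlings were of the japonica cultivar TNG67, were 17 days old and had been grown without nitrogen. Their roots then stood for 30 min in solution without nitrogen (−N) or with 1.43 mM ammonium nitrate (+N). RNA of 2 biological replicates of each group was hybridized to Affymetrix Rice Genome Arrays, 1 array for each sample. The labels call the replicates biological and do not say whether they were grown apart. A p-value here covers only the spread between arrays, in which biological and technical parts cannot be told apart. The values are intensities, the brightness of a probe set on a linear scale, and a fold change is the ratio of +N to −N. A gene was called when its fold change was at least 2 with an unadjusted p under 0.05 in limma. This rule called 266 of 57194 probe sets higher (0.465%) and 8 lower (0.014%). An unadjusted p under 0.05 was found for 694 probe sets (1.21%), and 0 passed after Benjamini-Hochberg adjustment. Each p below is from limma, and SE is the standard error of a log2 fold change. Levels of different genes are not set against each other, because each probe set has its own brightness. The probe sets of *TIFY2B*, *TIFY5*, *TIFY6B*, *TIFY10A*, *TIFY11B*, *LOX5*, *OPR2* and *Cht3* carry suffixes that mark them as able to read more than 1 transcript, of the gene itself or of relatives, so these 8 levels are less certain.

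WRKY proteins are plant-specific transcription factors that bind the W-box of promoters, and many of them act in responses to pathogens. Jasmonate is a lipid hormone of defense and wounding. Lipoxygenase (LOX), allene oxide synthase (AOS), allene oxide cyclase (AOC) and oxophytodienoate reductase (OPR) act in that order in its synthesis. JAZ proteins, a branch of the TIFY family, hold back jasmonate-responsive transcription factors until the hormone sends them to degradation, and JAZ genes are themselves induced by jasmonate.

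None of the 52 measured genes was called in either direction after 30 min of ammonium nitrate. Among all genes 1.01% were called higher and 0.0223% lower, so that a count of 0 in 52 genes is near this background. Without adjustment 1 of the 52, *WRKY71*, had a p under 0.05 in limma, as had 2.2% of all genes. The median log2 fold change of the 52 genes was 0.15, with a range from -0.64 to 1.75, and that of all genes was 0.02. In both replicates 26 of the 52 genes were higher in +N and 2 were lower, where 28.7% of all genes were higher and 21% lower in both. The 2 +N arrays were above both −N arrays for 8 of the 52 genes and below both for 1, where 9.29% and 5.15% of all genes had such a separation. With 2 arrays a group the 95% confidence intervals were wide, and for 19 of the 50 genes above the floor on all 4 arrays the interval lay within a 2-fold change either way. These 19 include *Cht7* and *Cht9*, which read close to the floor. Of the 52 genes, 11 were dimmer on average than the median probe set, at 20.8. For such genes a narrow interval says little about a change. The count of called genes depended on single arrays. Without the −N array of replicate 1 it was 4 higher (*WRKY71*, *WRKY76*, *WRKY62* and *TIFY10C*) and 1 lower (*AOS4*), without the +N array of replicate 1 it was 2 higher (*Cht6* and *Cht11*), and without the +N array of replicate 2 it was 1 higher (*WRKY71*).

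The replicates differed in size of change. Between the arrays of replicate 1, 0 of the 52 genes differed by 2-fold or more. Between those of replicate 2, 7 were at least 2-fold higher in +N and 1 at least 2-fold lower. The 7 were *WRKY76*, *WRKY62*, *TIFY10C*, *LOX9*, *PBZ1*, *Cht6* and *Cht11*, and the 1 was *AOS4*. Of all 17905 genes, 402 were at least 2-fold higher and 46 lower in replicate 1, against 358 and 279 in replicate 2. A 2-fold difference in replicate 1 was thus rare among all genes too, with 448 of 17905. The plot of the change in each replicate shows these genes, with *Cht6* the nearest to the line of equal change.

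**Figure D1:**
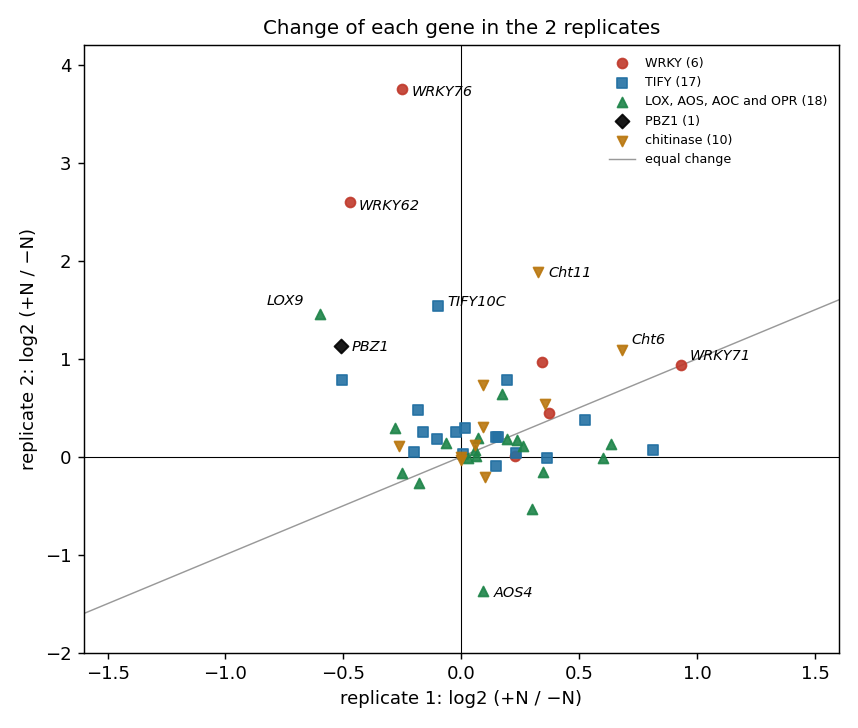
Change of each of the 52 genes as log2 of +N over −N, between the arrays of replicate 1 on the horizontal axis and of replicate 2 on the vertical axis, by family. *WRKY71* lies on the line of equal change, at 0.93 in both replicates, while *WRKY76* lies at -0.25 and 3.75.

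The arrays also differed as a whole. Over the rice probe sets, the median intensity was 17.8 and 17.1 on the −N and +N arrays of replicate 1, and 25.2 and 25.4 on those of replicate 2, so changes are also given by replicate for the genes described at length. Of the 4 root genes checked, the silicon transporter gene *LSI1* was between 7224 and 9869 on the 4 arrays and the root patterning gene *SHR1* between 58.0 and 86.1. *LSI2*, of silicon export, read 596 and 1486 in −N and 768 and 721 in +N, so that it was highest on the −N array of replicate 2. *SCR1*, also of root patterning, read 13.4 and 16.2 in −N and 10.9 and 12.3 in +N, without overlap. The probe sets of the 3 leaf photosynthesis genes all carry suffixes that mark them as able to read more than 1 transcript. Of these genes, *CAB2R* was between 7870 and 11216, while *RBCS* was 304 and *RCA* 354 on the −N array of replicate 1. On the other arrays *RBCS* and *RCA* were between 873 and 1303. The part of these differences in the results was not tested. In RNA of whole roots, fewer cells of a type and less RNA per cell cannot be told apart.

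*WRKY71* (LOC4328512), a transcription factor gene of defense and gibberellin signalling in rice, had the smallest p of all 52 genes. Its intensity was 614 and 544 on the −N arrays of replicates 1 and 2 and 1172 and 1038 on the +N arrays. The groups did not overlap, and both +N arrays were high. The level was 1.91-fold higher in +N in each replicate, a log2 fold change of 0.93 (SE 0.17, unadjusted p = 0.00851), with a 95% confidence interval from 1.35-fold to 2.71-fold. It thus fell short of the 2-fold threshold and would be called at 1.5-fold. A dimmer probe set of *WRKY71* read 93.3 and 31.2 in −N and 190 and 219 in +N, and this probe set on its own was called. It was 3.78-fold higher in limma (SE 0.63 on the log2 scale, unadjusted p = 0.0477). Its replicates were unlike, with 2.04-fold in replicate 1 and 7.02-fold in replicate 2, where the −N array was the lowest of all. The mean over both probe sets gave a log2 fold change of 1.43 (unadjusted p = 0.0237). The brighter probe set was at 0.89 on the log2 scale after quantile normalization (unadjusted p = 0.0700) and at 0.95 after median centring (unadjusted p = 0.0457). It also stayed under 2-fold with an offset of 16, dim probe sets left out, trend and robust moderation or a replicate block. In these limma fits its unadjusted p ran from 0.00336 to 0.0345.

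*WRKY76* (LOC4347069) and *WRKY62* (LOC4347070) neighbour each other on chromosome 9, with no gene between them in the gene table, and both encode repressors of defense in rice. *WRKY76* read 268 and 18.2 in −N and 226 and 245 in +N. *WRKY62* read 199 and 20.0 in −N and 143 and 121 in +N. In both genes 1 array stood apart, the −N array of replicate 2, and the other −N array was the highest of the 4. The lowest of the other 3 arrays was 12.4-fold above it for *WRKY76* and 6.05-fold above it for *WRKY62*. The change of *WRKY76* was therefore 0.840-fold in replicate 1 and 13.5-fold in replicate 2, with a log2 mean of 1.75 (SE 1.5, unadjusted p = 0.320). For *WRKY62* it was 0.721-fold and 6.05-fold, with a log2 mean of 1.06 (SE 1.29, unadjusted p = 0.464). The direction of both rested on that array. Without it their log2 fold changes were -0.19 and -0.59, and without the −N array of replicate 1 they were 3.69 and 2.72.

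*WRKY24* and *WRKY51*, which like *WRKY71* encode repressors of gibberellin responses in cereal aleurone cells, were above both −N arrays on both +N arrays. *WRKY51* read 172 and 171 in −N and 222 and 233 in +N. Its replicates were close, with log2 changes of 0.37 and 0.44 and a mean of 0.41 (SE 0.14, unadjusted p = 0.0557). *WRKY24* (LOC4327518) read 190 and 130 in −N and 241 and 254 in +N, a log2 fold change of 0.65 (SE 0.26, unadjusted p = 0.0741), which was 0.34 in replicate 1 and 0.97 in replicate 2. *WRKY24* was named after its values were seen. *WRKY9* (LOC4343736) had no such separation, with 338 and 554 in −N, 397 and 557 in +N and a log2 fold change of 0.12 (SE 0.36, unadjusted p = 0.761). All 6 genes with a WRKY name in the tables used here had a positive mean change, from 0.12 to 1.75. Their median was 0.79, and 4 of the 6 were higher in both replicates. Any WRKY gene without such a name was not examined, so these values do not describe the family as a whole. By replicate the median was 0.29 and 0.95, and *WRKY76* and *WRKY62* were lower in +N in replicate 1. Of the 6, 3 were above both −N arrays on both +N arrays, where 9.29% of all genes were. None was called, where 1.01% of all genes were called higher.

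**Figure D2:**
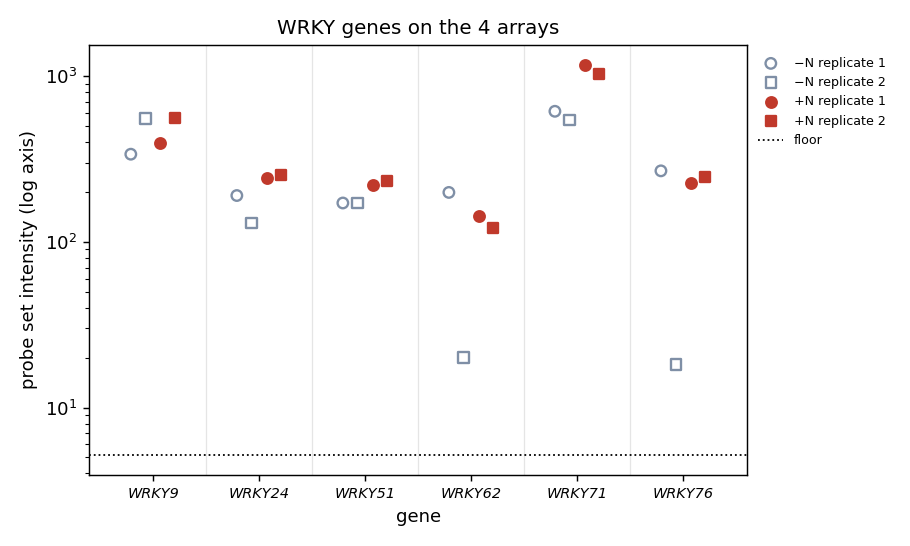
Intensity of the 6 WRKY genes on a log axis, with open grey symbols for −N, filled red symbols for +N, circles for replicate 1 and squares for replicate 2. The dotted line is the floor of 5.16. Both +N arrays of *WRKY71* lie above both −N arrays, and the −N square of *WRKY76*, at 18.2, and that of *WRKY62*, at 20.0, lie far below the other 3 symbols.

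Of the TIFY family 17 of 18 genes were measured, and 0 were called. The 13 JAZ genes had a median log2 fold change of 0.15, with a range from 0.03 to 0.72. By replicate their median was 0.01 and 0.26. Of the 13, 5 were higher in both replicates, 0 were lower in both and 8 changed in opposite directions. Over all genes 28.7% were higher and 21% lower in both, and 1.01% were called higher and 0.0223% lower. The 3 GATA-type members, which carry a GATA zinc finger beside the TIFY domain and are not JAZ repressors, had a median log2 fold change of 0.02. *TIFY8* (LOC4330630) read between 9.24 and 16.2 on the 4 arrays.

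*TIFY10C* (LOC4347164), a JAZ gene, had the highest mean change of the family. It read 773 and 257 in −N and 722 and 750 in +N. Once more the −N array of replicate 2 was low and the other 3 were alike, the lowest of them 2.81-fold above it. The change was 0.934-fold in replicate 1 and 2.92-fold in replicate 2, a log2 mean of 0.72 (SE 0.63, unadjusted p = 0.325). It was -0.07 when the −N array of replicate 2 was left out and 1.52 when that of replicate 1 was. By brightest probe set, 0.279% of all genes were at least 2-fold lower on this array than on each other array. Of the 52, only *TIFY10C* and the 2 WRKY genes of chromosome 9 were. The dimmer probe set of *WRKY71* was also low there, at 31.2, with the next lowest array at 93.3.

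*TIFY10A* (LOC4333065) was the 1 JAZ gene of 13 with both +N arrays above both −N arrays, a separation found in 9.29% of all genes. It read 1789 and 2388 in −N and 2571 and 3090 in +N, a log2 fold change of 0.45 (SE 0.24, unadjusted p = 0.144). The changes were similar in the replicates, 1.44-fold and 1.29-fold. Its probe set is 1 of the 8 that can read more than 1 transcript. *TIFY10B* (LOC4343899) read 4692 and 4914 in −N and 4738 and 6025 in +N, and *TIFY3* (LOC4337240), also named *EG2* and known for its role in spikelet development, read 9469 and 9270 in −N and 8815 and 10478 in +N. Their confidence intervals, from 0.743-fold to 1.67-fold and from 0.722-fold to 1.46-fold, held no 2-fold change.

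*TIFY11A*, *TIFY11C* and *TIFY11B* neighbour each other on chromosome 3, and *TIFY11E* and *TIFY11D* lie near each other on chromosome 10. *TIFY11B* (LOC4331834), known as a gene of grain size, read 1870 and 933 in −N and 2141 and 1609 in +N, a log2 fold change of 0.49 (SE 0.44, unadjusted p = 0.338). Its probe set may also read relatives, and a dimmer probe set of *TIFY11B* without such a suffix gave 0.52 (unadjusted p = 0.320). *TIFY11A* split by replicate number and not by group, with 416 and 535 on the −N and +N arrays of replicate 1 and 195 and 193 on those of replicate 2. *TIFY11E* also had its highest value in replicate 1, with 281 and 202 in −N and 493 and 212 in +N. *TIFY11C* and *TIFY11D* had lower values in +N in replicate 1 and higher ones in replicate 2, with log2 changes of -0.51 and 0.79 for *TIFY11C* and of -0.18 and 0.48 for *TIFY11D*. The 5 genes of this branch all read lower on the −N array of replicate 2 than on that of replicate 1. *TIFY11A*, *TIFY11C*, *TIFY11D* and *TIFY11E* were named after their values were seen.

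Among the other TIFY genes, *TIFY6A*, *TIFY6B* and *TIFY9* had log2 fold changes of 0.14, 0.03 and 0.12, each smaller than its SE. *TIFY5* read between 4.51 and 7.03, at or near the floor of 5.16, so no change could be read for it. The GATA-type genes *TIFY1A* (LOC4333738) and *TIFY2B* (LOC4341953) had the lowest changes of the family. *TIFY1A* read 315 and 314 in −N and 274 and 325 in +N, a log2 fold change of -0.08 (SE 0.17, unadjusted p = 0.682). *TIFY2B* read 214 and 310 in −N and 215 and 316 in +N, so that it was 1.00-fold and 1.02-fold in the replicates while the 2 replicates themselves lay further apart.

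**Figure D3:**
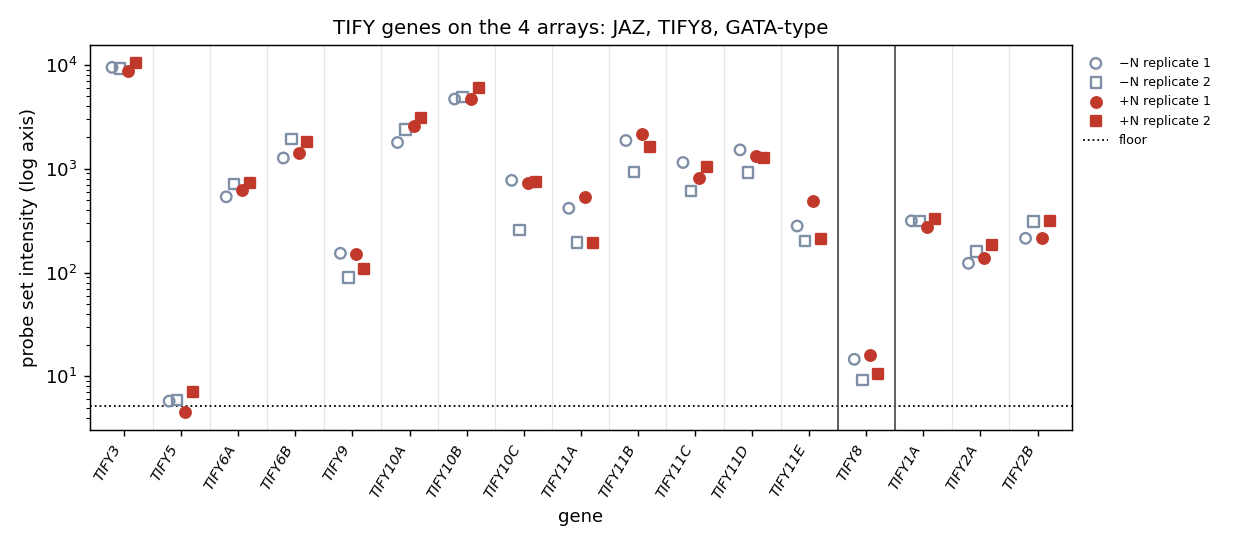
Intensity of the 17 measured TIFY genes on a log axis, with symbols as in the plot of the WRKY genes. Solid lines part the JAZ genes, *TIFY8* and the GATA-type genes. For *TIFY10C* 3 symbols lie between 722 and 773 and the −N array of replicate 2 lies at 257, and *TIFY5* lies around the dotted floor.

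For the enzyme families of jasmonate synthesis 18 of 21 genes were measured, and 0 were called. The genes were taken by name, and whether each of them acts in this route was not examined. Their median log2 fold change was 0.08, and it was 0.08 in replicate 1 and 0.09 in replicate 2. Of the 18, 8 were higher in both replicates, 2 were lower in both and 8 changed in opposite directions. Over all genes 28.7% were higher and 21% lower in both, and 1.01% were called higher and 0.0223% lower. Both +N arrays were above both −N arrays for 2 of the 18 and below both for 1. Such a separation was found for 9.29% and 5.15% of all genes. The confidence interval lay within a 2-fold change either way for 9 of the 18. Among these 9 were the dim genes *OPR4* and *LOX8*, whose weak signal limits what an interval can show.

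The 6 lipoxygenase genes, which encode the first enzymes of the route and of related oxylipins, had log2 fold changes from -0.12 to 0.43. *LOX9* (LOC4345994) had the highest. It read 98.9 and 49.3 in −N and 65.4 and 135 in +N, so that it was 0.661-fold in replicate 1 and 2.74-fold in replicate 2 (log2 mean 0.43, SE 0.58, unadjusted p = 0.505). Its 2 dimmer probe sets read near the floor. The neighbouring *LOX8* read between 14.8 and 21.7. *LOX5* read 676 on the −N array of replicate 1 and between 1024 and 1159 on the other 3 arrays, and *LOX1.1*, *LOX2* and *LOX3* had log2 fold changes of 0.04, 0.20 and -0.12. The replicates of *LOX3* went opposite ways, with 0.30 and -0.54. These 5 genes were named after their values were seen.

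Among the allene oxide synthase genes, *AOS4* (LOC4328743) had the lowest change of all 52 genes. It read 439 and 1501 in −N and 469 and 579 in +N. Here too the −N array of replicate 2 stood apart, but on the high side, and the other 3 arrays lay together. The change was 1.07-fold in replicate 1 and 0.386-fold in replicate 2, a log2 mean of -0.64 (SE 0.71, unadjusted p = 0.425). Leaving out the −N array of replicate 2 gave 0.25, and leaving out that of replicate 1 gave -1.53. The neighbouring *AOS3* read 6.92 and 5.82 in replicate 1 and 17.8 and 15.9 in replicate 2. *AOS2* (LOC4332121) was higher in +N in both replicates and without overlap, with 128 and 144 in −N, 144 and 224 in +N and a log2 fold change of 0.41 (SE 0.29, unadjusted p = 0.245). *AOS1*, also listed as *PRECOCIOUS*, had a log2 fold change of 0.19 (SE 0.23, unadjusted p = 0.467). *AOS3* and *AOS1* were named after their values were seen.

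*AOC* (LOC4333201) is the allene oxide cyclase gene whose loss leaves rice without jasmonate, as in the mutants *cpm2* and *hebiba*. It read 2936 and 3271 in −N and 3355 and 3704 in +N. Both +N arrays were above both −N arrays, and the replicates were alike, with 1.14-fold and 1.13-fold. The log2 fold change was 0.19 (SE 0.16, unadjusted p = 0.323), and its confidence interval from 0.815-fold to 1.59-fold held no 2-fold change.

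The 7 measured oxophytodienoate reductase genes had log2 fold changes from -0.22 to 0.38. *OPR7* (LOC4345762), the reductase known to act in rice jasmonate synthesis, read 1151 and 1845 in −N and 1204 and 1853 in +N, and was 1.05-fold and 1.00-fold in the replicates. *OPR7* was named after its values were seen. *OPR6*, *OPR5*, *OPR4*, *OPR3*, *OPR2* and *OPR1* form a row of neighbours on chromosome 6, and 4 of these 6 were measured. *OPR2* (LOC4340490), whose entry also carries the name *OPR1*, read 808 and 798 in −N and 715 and 663 in +N. It was the 1 gene of the 52 with both +N arrays below both −N arrays, by 0.884-fold and 0.831-fold (log2 mean -0.22, SE 0.15, unadjusted p = 0.213). *OPR5* (LOC4340485) read 1289 and 1631 in −N and 1341 and 1711 in +N, with a log2 fold change of 0.06 (SE 0.23, unadjusted p = 0.804). *OPR6* (LOC4340484) read 8.57 and 25.6 in −N and 13.3 and 28.0 in +N, where the replicates differed more than the groups. *OPR4* and *OPR12* read under 12 on all 4 arrays, and *OPR8* had a log2 fold change of 0.13.

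**Figure D4:**
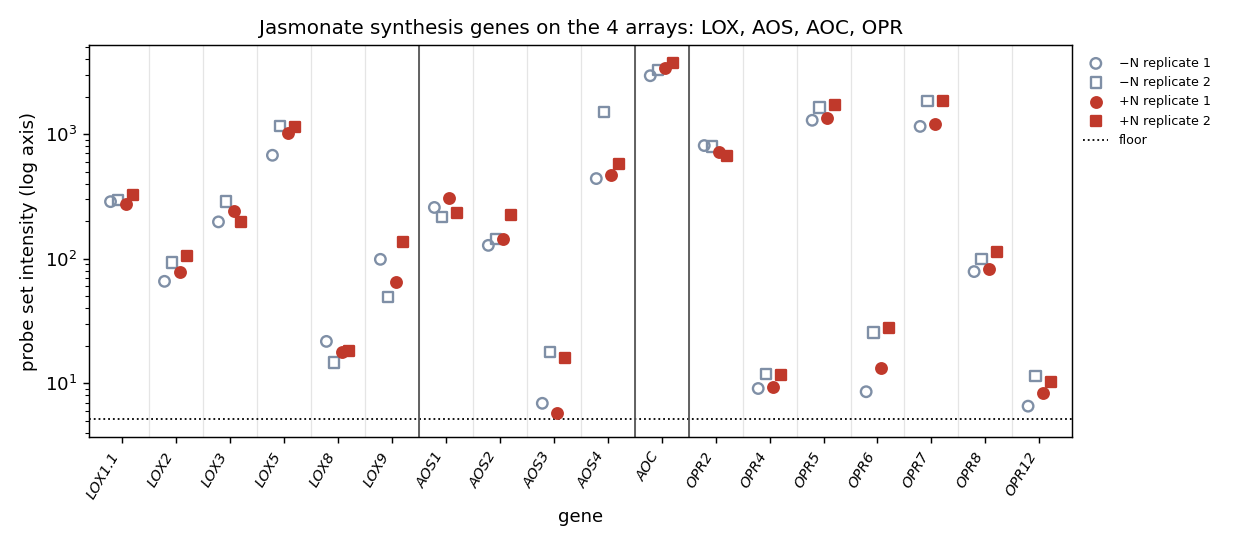
Intensity of the 18 measured genes of the jasmonate synthesis families on a log axis. Symbols are as in the plot of the WRKY genes, with solid lines between LOX, AOS, AOC and OPR. The 4 symbols of *AOC* lie between 2936 and 3704, and the −N array of replicate 2 of *AOS4*, at 1501, lies above the other 3.

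*PBZ1* (LOC4352491) encodes a pathogenesis-related protein of the PR10 family that was found as a gene induced by the fungicide probenazole. It read 4018 and 3029 in −N and 2823 and 6629 in +N. The +N array of replicate 2 was the highest and that of replicate 1 the lowest of the 4, so the groups overlapped. The change was 0.703-fold in replicate 1 and 2.19-fold in replicate 2, a log2 mean of 0.31 (SE 0.52, unadjusted p = 0.588). Leaving out the +N array of replicate 2 gave -0.31, and leaving out that of replicate 1 gave 0.93.

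Of the chitinases, enzymes that cleave the chitin of fungal walls, 10 of 12 genes were measured, and 0 were called. Their median log2 fold change was 0.15, with a range from -0.08 to 1.11, and it was 0.09 in replicate 1 and 0.22 in replicate 2. In both replicates 6 were higher in +N and 0 were lower, where 28.7% and 21% of all genes were. Of all genes 1.01% were called higher and 0.0223% lower. *Cht11* (LOC4331519) and *Cht6* (LOC4329920) had the 2 highest changes. Both were higher in +N without overlap, as were 9.29% of all genes. *Cht11* read 105 and 86.1 in −N and 132 and 319 in +N. The +N array of replicate 2 was at least 2-fold above each other array, and the change was 1.25-fold in replicate 1 and 3.71-fold in replicate 2. Its log2 mean of 1.11 exceeded the 2-fold threshold, with a p over 0.05 (SE 0.52, unadjusted p = 0.115). After median centring *Cht11* was called (log2 fold change 1.13, unadjusted p = 0.0293). Leaving out the +N array of replicate 2 brought its change to 0.47. *Cht6* read 73.0 and 93.0 in −N and 117 and 198 in +N, 1.61-fold and 2.13-fold higher in the replicates (log2 mean 0.89, SE 0.35, unadjusted p = 0.0766).

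The other chitinase genes showed smaller changes or no measurable signal. *Cht8* (LOC4349267) read 245 and 263 in −N and 261 and 435 in +N, a log2 fold change of 0.41 (SE 0.32, unadjusted p = 0.279). Another probe set of *Cht8*, whose suffix marks it as reading similar transcripts too, gave 0.49 (unadjusted p = 0.123), and a dim one gave -0.11 (unadjusted p = 0.751). *Cht1* (LOC4342115) split by replicate number, with 124 and 158 on the −N and +N arrays of replicate 1 and 251 and 365 on those of replicate 2, and was 1.28-fold and 1.46-fold higher. The neighbouring *Cht3* had a log2 fold change of 0.20 (SE 0.19, unadjusted p = 0.354), and was named after its values were seen. *Cht10* (LOC4325148) read 768 and 1028 in −N and 639 and 1111 in +N, with a log2 fold change of -0.08 (SE 0.37, unadjusted p = 0.85). *Cht4* was below the floor on all 4 arrays and has no fold change, and *Cht5*, *Cht7* (LOC4338720) and *Cht9* read between 5.83 and 9.54.

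**Figure D5:**
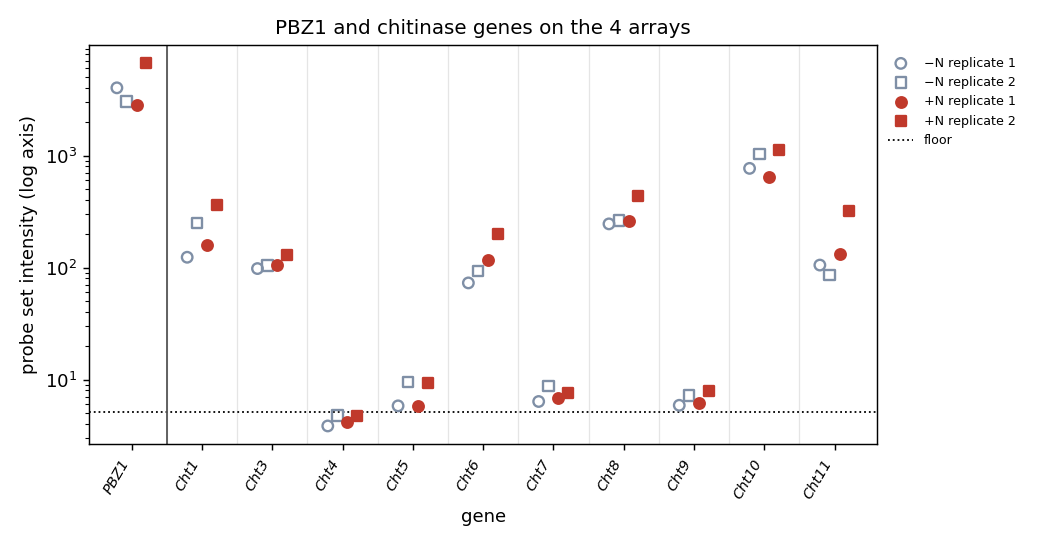
Intensity of *PBZ1* and the 10 measured chitinase genes on a log axis, with symbols as in the plot of the WRKY genes. The +N array of replicate 2 of *Cht11*, at 319, and that of *PBZ1*, at 6629, are the highest of their 4, and *Cht4* lies below the dotted floor of 5.16.

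The spread between the 2 −N arrays was a feature of several of these genes. *WRKY76*, *WRKY62*, *TIFY10C*, *TIFY11A*, *TIFY11B* and *LOX9* were at least 2-fold higher on the −N array of replicate 1 than on that of replicate 2. These were 6 of 52 genes (11.5%), against 0.715% of all genes. In the other direction, *AOS3*, *AOS4*, *OPR6* and *Cht1* were at least 2-fold lower on the −N array of replicate 1, 4 of 52 (7.69%) against 16.6% of all genes. On the +N arrays *TIFY11A* and *TIFY11E* were at least 2-fold higher in replicate 1 than in replicate 2, 2 of 52 (3.85%) against 0.195% of all genes. There *LOX9*, *AOS3*, *OPR6*, *PBZ1*, *Cht1* and *Cht11* were at least 2-fold lower in replicate 1, 6 of 52 (11.5%) against 5.77% of all genes. This contrast between replicates was examined after the values were seen, and the probe sets were the same as above, so the shares are descriptions. Over all genes, the median log2 difference of replicate 1 from replicate 2 was itself -0.52 in −N and -0.39 in +N. *WRKY76* and *WRKY62* are neighbours, and *TIFY11A* and *TIFY11B* lie in 1 row of neighbours, so these genes need not be independent.

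Other genes of jasmonate and pathogen signalling were taken from a list of 62 names, of which 19 genes were measured. Of the 19, 0 were called in either direction in limma, against 1.01% of all genes higher and 0.0223% lower. None had an unadjusted p under 0.05 in limma, against 2.2% of all genes. The median log2 fold change of the 19 was 0.05, with a range from -0.42 to 0.51. The jasmonate receptor genes *COI1A*, *COI1B* and *COI2* had log2 fold changes of 0.15, 0.08 and 0.01. *JAR1*, which encodes the enzyme that joins jasmonate to isoleucine, had the lowest value of the list, with 319 and 518 in −N, 267 and 344 in +N and a log2 fold change of -0.42 (SE 0.33, unadjusted p = 0.288). *NINJA*, an adaptor of JAZ repression, had 0.14. Its probe set and that of *PAL* carry suffixes that mark them as able to read several transcripts. The paper lists a gene annotated as Ninja-family among those induced by ammonium nitrate, and that gene was not searched for by its locus here. *NPR3*, of the family of salicylate-response regulators, had the highest, with 271 and 251 in −N, 325 and 425 in +N and a log2 fold change of 0.51 (SE 0.21, unadjusted p = 0.0811). Both of its +N arrays were above both −N arrays, a separation found in 9.29% of all genes. *PAL*, of phenylpropanoid synthesis, read 9739 and 10022 in −N and 8668 and 8776 in +N, a log2 fold change of -0.18 (SE 0.14, unadjusted p = 0.280). The list was matched by name, and the name *RAC1* of a small GTPase also drew in an actin gene, which is among the 19. Of 14 names of beta-1,3-glucanases, 0 matched a gene. The protease inhibitor name *BBTI* matched none either. The paper reports *BBTI* among the genes induced by ammonium nitrate on its arrays, and again in qRT-PCR. It names *KCS11* and *TAXI-I* beside it as stress-responsive, and these 2 were not searched for here. The list thus leaves out some defense genes.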

How the data were processed

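Affymetrix Rice Genome Arrays of 4 root samples were analysed. The values deposited by the authors are linear intensities of probe sets, in a column for each array and without pooling. Of software, GCOS and RMA are listed in the submitters' processing notes, with no version. How the arrays were normalized is not stated, and their medians differ. Of 57381 probe sets, 187 controls were left out. Values under 5.16, their 5th percentile, were raised to it before log2 was taken. The log2 values of 57194 probe sets were fitted by limma 3.58.1 (R 4.3.3) with group as the only term. The paper's methods give a 2-fold cutoff and a p under 0.05 and state no adjustment for array calls. With 2 arrays in each group, the smallest two-sided p of an exact permutation test is 0.333.

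Genes were assigned by the platform's annotation and by a RefSeq gene table (ASM3414082v1) from which only names and gene order were taken. Of the rice probe sets, 22436 are paired with 1 gene, 95 with several and 34663 with none. A gene is represented by its brightest probe set, by mean log2 value. Where table entries share a synonym, the name that parts them was used. Members and lists were chosen with earlier results of these data known. By rule the text names called genes, *WRKY71*, *WRKY76*, *TIFY10C* and *Cht11*, and in each family the 3 highest and 2 lowest changes and the 2 brightest genes, 26 in all. Any other single gene was named after its values were seen. The alternatives were median centring, quantile normalization, an offset of 16, a filter on dim probe sets, trend and robust moderation, the replicate block, each array left out, averaged probe sets and a 1.5-fold threshold. The number of arrays limits the precision.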

Additional observations from a re-analysis of the deposited data

How the results depend on the processing

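The count of 0 genes called higher stayed at 0 after quantile normalization, with an offset of 16, with dim probe sets left out (41 of 52 genes tested), with trend and robust moderation and with the replicate block. It was 1 after median centring (*Cht11*), 1 when probe sets of a gene were averaged and 1 with a 1.5-fold threshold (both *WRKY71*). Leaving out each array in turn gave 0 to 4 higher and 0 to 1 lower, and such fits set arrays of different scale against each other. The count of genes called lower was 0 under every other alternative. The replicate numbers are not said to pair the samples, and deviations of same-numbered arrays had a correlation of 0.561. With the replicate block 0 genes were called and 5 of 52 had an unadjusted p under 0.05 (*WRKY71*, *WRKY51*, *TIFY10A*, *Cht6* and *Cht1*), or 9.62% against 7.66% of all genes. Over all probe sets it called 294 higher and 15 lower, against 266 and 8 without it. Other scalings and moderation, the offset and the filter on dim probe sets called 235 to 335 probe sets higher and 3 to 20 lower, and 14 passed adjustment under that filter. Adjusted p-values of the 52 genes were all above 0.05 under every alternative.

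Of 284 pairs of a named gene and an alternative, 247 kept sign and side of the call, 10 became called and 27 changed sign, 25 of these with an array left out. Apart from those, *TIFY2B* was -0.043 after quantile normalization and *OPR5* -0.11 with probe sets averaged. With an array left out, the log2 fold changes ranged from -0.24 to 0.47 for *WRKY9*, -0.19 to 3.69 for *WRKY76*, -0.59 to 2.72 for *WRKY62*, -0.20 to 0.049 for *TIFY1A*, -0.26 to 0.30 for *TIFY2B*, -0.010 to 0.99 for *TIFY11B*, -0.088 to 0.16 for *TIFY3*, -0.019 to 0.33 for *TIFY10B* and -0.070 to 1.52 for *TIFY10C*. They ranged from -0.10 to 0.95 for *LOX9*, -1.53 to 0.25 for *AOS4*, -0.40 to 1.17 for *OPR6*, -0.11 to 0.24 for *OPR5*, -0.31 to 0.93 for *PBZ1*, -0.48 to 0.32 for *Cht10*, -0.28 to 0.17 for *Cht7* and -0.15 to 1.05 for *Cht1*. *WRKY71* stayed between 0.84 and 1.02. Beyond the arrays left out, the cause of these changes was not tested. Signal near the floor limits *TIFY5*, *Cht4*, *Cht5*, *Cht7* and *Cht9*.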
